A study of Mus musculus with 6 samples.

Results

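The autophagy machinery genes are the genes whose proteins start, build, fill and deliver the autophagosome, the membrane sac that carries cell material to the lysosome. They were chosen by symbol: the Atg genes, Ulk1 to Ulk3, Map1lc3a and Map1lc3b, the Gabarap family, the lipid kinase complex around Becn1, the Wipi and Wdr45 proteins, the cargo receptors and a few genes of membrane supply and fusion. The rule found 42 genes with 85 transcripts among the 8513 genes and 15905 transcripts in the authors' deposited table. A further 7 names that the rule matches in GENCODE, Atg16l1, Atg16l2, Atg2a, Atg4a, Atg4a-ps, Atg9b and Rb1cc1, have no row there, and their levels were not analysed here.

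RNA had been sequenced from B16.F10, an established mouse melanoma cell line that makes pigment, labelled wild type. The 3 control samples had no treatment, and the 3 simvastatin samples received 3.5 µM for 24 h, the dose that the labels give as the inhibitory concentration for these cells. Simvastatin is a statin, which blocks HMG-CoA reductase and so the synthesis of mevalonate, the precursor of cholesterol and of the lipid anchors of small GTPases. Each transcript has 1 expression value per group, and the labels and headers name no unit for it, so no SD could be computed, the overlap of the samples cannot be seen, and the depth is unknown. For the same reason levels are compared between groups for 1 gene at a time, not between genes.

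Autophagy runs as a chain of steps. The ULK kinase complex starts it, a class III phosphoinositide 3-kinase complex around Becn1 marks the site, and ATG9 vesicles and lipid transfer proteins supply membrane. Ubiquitin-like conjugation then fixes ATG8 proteins (the LC3 and GABARAP families) to the growing membrane, cargo receptors tie their freight to ATG8, and tethering proteins help the closed sac to fuse with the lysosome. In melanocytes and melanoma cells the lysosome-related melanosome shares part of this machinery, and Mitf, the lineage transcription factor, belongs to the family of Tfeb and Tfe3, which switch on lysosome and autophagy genes.

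All 8 melanocytic marker genes looked for were listed, with gene totals of 44.15 to 3436.98. Their values summed to 11465 with simvastatin and 8012.06 in control. This sum runs over genes of unlike value and does not give the direction of each gene. The leukocyte, endothelial, fibroblast and epithelial markers (0 of 4, 0 of 2, 0 of 3 and 0 of 3) were not listed. The sum over all transcripts was 344210 with simvastatin and 394749 in control. In such bulk values a change in the RNA of each cell cannot be told apart from a change in the make-up of the culture.

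Most autophagy genes had a higher value with simvastatin, mostly by little, and the cargo receptors held most of the transcripts that the authors called. Gene totals, the sums of a gene's transcript values, were higher with simvastatin for 34 of the 42 genes (81.0%) and lower for 8, beside 51.8% higher among all 8436 genes with a mean total of at least 1. After centring on the median of all genes the split was 33 and 9, with Atg7 changing sides. The median log2 ratio of simvastatin over control was 0.25, and 0.02 over all genes. The range ran from -0.68 for Atg10 to 1.15 for Calcoco1. Of the 42 genes, 19 lay above the upper quartile of all genes (0.35), 6 below the lower quartile (-0.32) and 17 between them. The genes and their roles were chosen with earlier results of these data known. The contrasts with all genes and all transcripts, here and by role below, are therefore descriptions and not independent evidence.

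No autophagy transcript passed an adjusted p under 0.05 in the authors' deposited table in either direction, where 1.11% of all transcripts were higher and 0.987% lower. The lowest adjusted p was 0.054, for Calcoco1. Under 0.1, 4 transcripts were higher (Calcoco1, Nbr1, Optn and Ulk2, 4.71%) and 0 lower, beside 4.02% and 3.76% of all transcripts. The authors' own call, a fold of at least 1.5 with an adjusted p of up to 0.2, marked 9 of the 85 transcripts (10.6%), from 7 genes, as higher and 0 as lower, beside 5.13% higher and 4.37% lower of all transcripts. These genes were Atg14, Calcoco1, Map1lc3a, Nbr1, Optn, Sqstm1 and Ulk2, or 7 of 42, where 8.58% of all genes had at least 1 transcript called higher and 7.52% called lower. At an unadjusted p below 0.05 in the authors' deposited table, 12 of the 85 transcripts were higher and 1 lower (14.1% and 1.18%). The shares of all transcripts were 9.42% and 10.2%. The median unadjusted p of the autophagy transcripts was 0.419 and that of all transcripts 0.31.

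**Figure D1:**
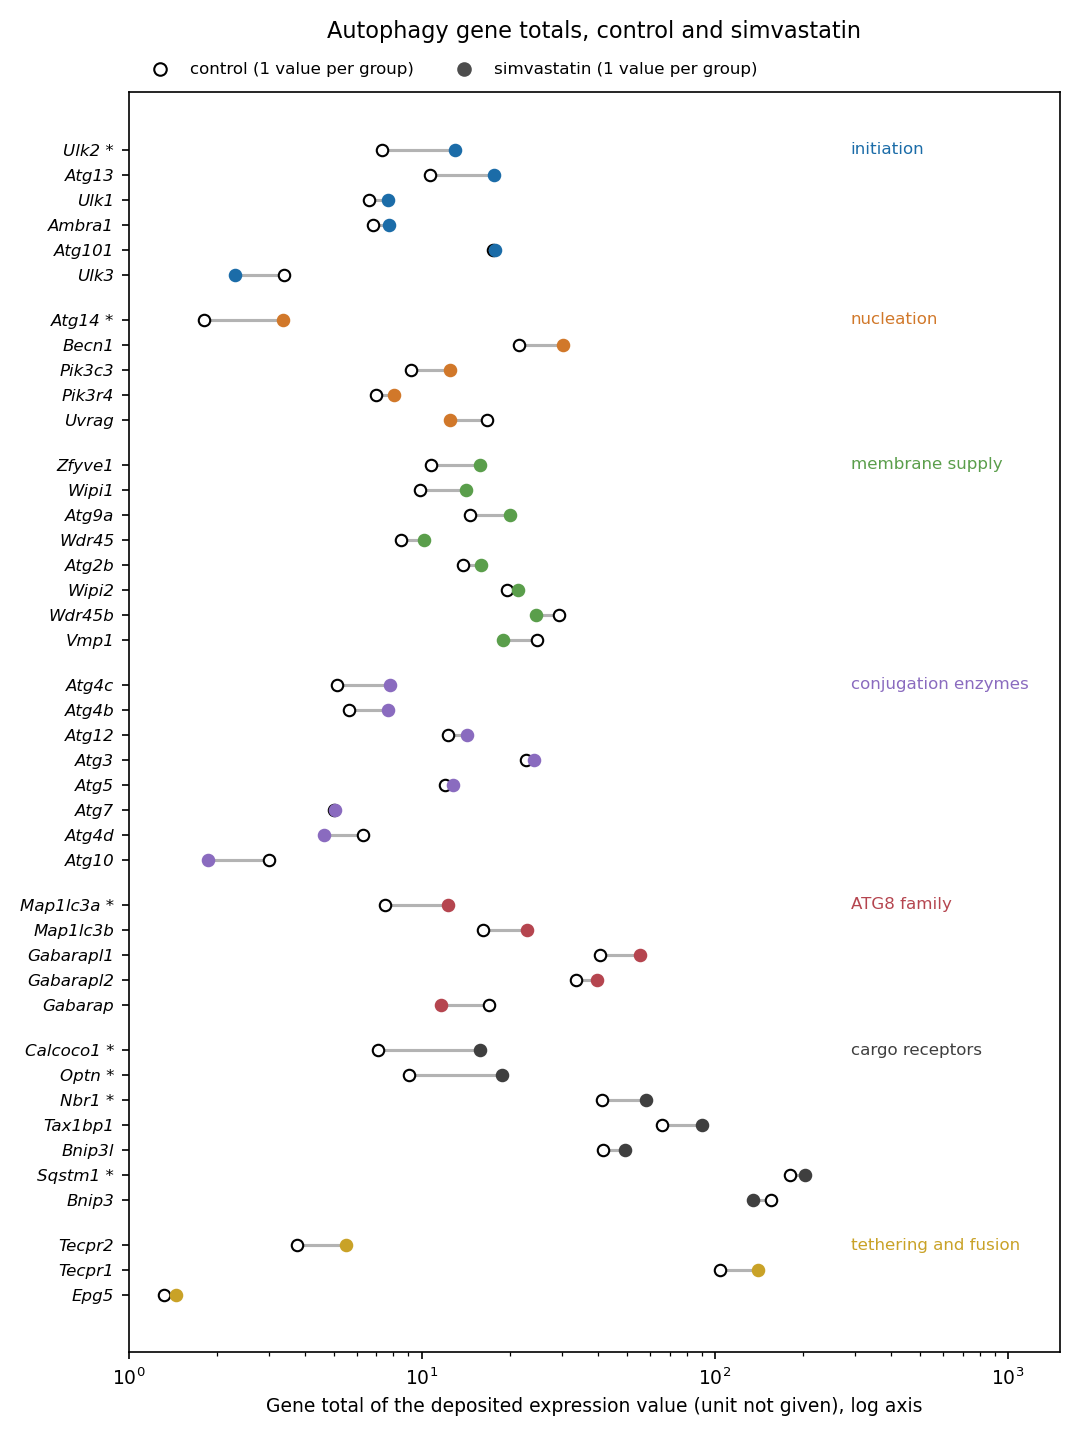
Gene totals of the 42 autophagy genes in control (open points) and with simvastatin (filled points) on a log axis, 1 value per group with no error, in the deposited unit. The genes are grouped by role and ordered by ratio, an asterisk marks the 7 genes with a transcript that the authors called, and 34 of the 42 filled points lie to the right of their open point.

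The kinases and scaffolds of initiation held 6 genes with 9 transcripts, of which 5 gene totals were higher and 1 lower, with a median log2 ratio of 0.20. Ulk2, a kinase that starts autophagy, had a value of 12.95 with simvastatin and 7.30 in control, a 1.77-fold ratio (p = 0.003, adjusted p = 0.064 in the authors' deposited table). It was the one initiation gene with the authors' call. Ulk2 lies at chr11:61775649-61855073 on the minus strand (GRCm38), and its listed transcript is the protein-coding Ulk2-201. Ulk1, its close relative, totalled 7.69 and 6.60 over a pair of coding transcripts (adjusted p = 0.683 and 0.899 in the authors' deposited table). Atg13, the scaffold that joins the kinase to its partners, stood at 17.65 and 10.68, a ratio of 1.65, with an adjusted p of 0.342 in the authors' deposited table, so its ratio was close to that of Ulk2 but without a call.

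Atg101, which binds and stabilises Atg13, was nearly equal at 17.76 and 17.42. Ambra1, a regulator that links the initiation and nucleation complexes, totalled 7.74 with simvastatin and 6.82 in control. For Ulk3, a related kinase, the only listed transcript was a 404-base retained-intron form at 2.31 and 3.38 (log2 -0.55, adjusted p = 0.959 in the authors' deposited table). It therefore says nothing of the coding message.

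Among the 5 genes of the nucleation complex, 4 totals were higher and 1 lower (median log2 ratio 0.44). Of their 12 transcripts, 1 had a call, as higher, beside 5.13% of all transcripts. Atg14, the subunit that brings the lipid kinase to the site where autophagosomes form, had 3.36 with simvastatin and 1.81 in control, a 1.86-fold ratio at low values (p = 0.010, adjusted p = 0.114 in the authors' deposited table). Uvrag, which takes the place of Atg14 in the complex that acts on endosomes, had the opposite direction as a total, 12.44 and 16.73. That total hid opposed transcripts: the coding Uvrag-201 had 9.63 and 6.16, while the retained-intron Uvrag-206 had 2.81 and 10.57 (adjusted p = 0.769 and 0.428 in the authors' deposited table).

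Becn1, the core scaffold of the complex, totalled 30.23 with simvastatin and 21.37 in control. Its coding transcript Becn1-205 was level at 9.24 and 9.21, and the difference sat in retained-intron transcripts, which summed to 20.99 and 12.16. All bases of Becn1-202, the larger of these, also lie in another listed Becn1 transcript, so reads there could be shared out in more than one way. Pik3c3, the catalytic subunit, totalled 12.47 and 9.17, and its main transcript Pik3c3-203 alone had 8.76 and 9.14. Pik3r4, the regulatory subunit, totalled 8.01 and 6.97.

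The 8 genes of membrane supply and phosphoinositide reading had 6 totals higher, 2 lower and a median log2 ratio of 0.23. There was no call in their 18 transcripts, beside 5.13% of all transcripts called higher and 4.37% lower. With so few transcripts in a role, the absence of a call is no sign of a difference from those shares. Atg9a, the membrane protein of the seed vesicles, had 20.02 with simvastatin and 14.58 in control, a 1.37-fold ratio that kept it under the authors' fold limit (p = 0.017, adjusted p = 0.147 in the authors' deposited table). Wipi1, a phosphoinositide reader that is widely used as an autophagy marker, totalled 14.12 and 9.84 over 2 coding transcripts that were both higher (1.33-fold and 1.55-fold, adjusted p = 0.542 and 0.455 in the authors' deposited table). Zfyve1, which marks the membrane platform where autophagosomes arise, had the largest ratio of the group, 15.82 and 10.72 (log2 0.56), of which the coding Zfyve1-201 made up 9.49 and 7.22.

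Wipi2, the reader that recruits the conjugation machinery, had 21.26 and 19.56, and Atg2b, a lipid transfer protein, had 15.86 and 13.83. Wdr45 totalled 10.14 and 8.46 from transcripts of opposite direction. Wdr45b, a fellow phosphoinositide reader, had 24.46 with simvastatin and 29.38 in control (adjusted p = 0.410 in the authors' deposited table). Vmp1, a membrane protein of the endoplasmic reticulum, totalled 18.96 and 24.73 (log2 -0.38), with the lowest adjusted p of its 6 transcripts at 0.569 in the authors' deposited table. Exons of Vmp1 overlap those of the microRNA gene Mir21a on the same strand, and the 2 were not told apart here.

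As gene totals, the conjugation enzymes showed the smallest median ratio of the roles. Their 8 genes had a median log2 ratio of 0.10, with 6 totals higher and 2 lower. A call was on 0 of 14 transcripts, beside 5.13% of all transcripts called higher and 4.37% lower. With annotated transcripts only, Atg10 had a log2 ratio of 0.78 in place of -0.68, and Atg4b 1.69 in place of 0.43. The other enzymes with an annotated transcript moved little or not at all. The order of the roles therefore holds for totals and was not worked out for other choices of transcripts. Atg7, the activating enzyme for both conjugation reactions, totalled 5.05 and 5.03. This level total came from 3 assembled models of opposite direction, at 1.40 and 0.61, 0.68 and 2.15, and 2.97 and 2.27, with no annotated transcript listed. Atg5, the acceptor that is joined to Atg12, had 12.81 with simvastatin and 12.01 in control (adjusted p = 0.945 in the authors' deposited table). Atg3, which hands ATG8 proteins to lipid, had 24.20 and 22.59, and Atg12 had 14.27 and 12.24. Atg5, Atg3 and Atg12 were thus listed at similar values in both groups, though no interval can be given for their differences.

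Atg10, which joins Atg12 to Atg5, had the lowest ratio of all 42 genes as a total (1.87 and 3.00, log2 -0.68), at low values. Its coding transcript was 1.87 and 1.09, and an assembled transcript was listed at 0 with simvastatin and 1.91 in control. The Atg4 proteases trim ATG8 proteins before conjugation and release them later. Atg4c, with 7.78 and 5.13 (log2 0.60, adjusted p = 0.318 in the authors' deposited table), had the highest ratio of the enzymes. Atg4b totalled 7.64 and 5.66, and one of its transcripts, a model assembled from reads, was the only autophagy transcript with a lower value at an unadjusted p under 0.05, at 2.42 and 4.04 (p = 0.036, adjusted p = 0.216 in the authors' deposited table). The coding Atg4b-201 went the other way, 5.22 and 1.62. Atg4d totalled 4.62 and 6.28.

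The 5 genes of the ATG8 family had a median log2 ratio of 0.46, with 4 totals higher and 1 lower. Map1lc3a, an LC3 gene, had 12.30 with simvastatin and 7.50 in control, a 1.64-fold ratio with the authors' call (p = 0.013, adjusted p = 0.130 in the authors' deposited table). It lies at chr2:155276297-155278073 on the plus strand. Map1lc3b, whose protein is the usual marker of autophagosomes on blots, had 22.89 and 16.14, a 1.42-fold ratio with no call (p = 0.052, adjusted p = 0.266 in the authors' deposited table). Both LC3 genes therefore had a single coding transcript with the higher value in the treated group.

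The GABARAP genes were split. Gabarapl1 totalled 55.42 and 40.39 and Gabarapl2 totalled 39.53 and 33.56, both with coding transcripts in the same direction (adjusted p = 0.948 and 0.675 in the authors' deposited table). Gabarap totalled 11.58 with simvastatin and 16.99 in control (log2 -0.55). Its coding transcript Gabarap-201 was listed at 3.71 and 12.91, and the retained-intron Gabarap-204 at 7.87 and 4.08, with adjusted p = 0.535 and 0.513 in the authors' deposited table. These 2 transcripts overlap: 58.8% of the bases of Gabarap-201 also lie in Gabarap-204. Between genes, the 351-base coding sequences were 74.6% identical for Gabarap and Gabarapl1, 61.5% for Gabarap and Gabarapl2 and 63.5% for Gabarapl1 and Gabarapl2, compared without gaps. How reads that fit more than one place were assigned is not stated in the labels or headers.

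Taking the conjugation enzymes and the ATG8 family as one system, 10 of 13 totals were higher and 3 lower with a median log2 ratio of 0.22, and 1 of 23 transcripts had a call. Initiation had 1 call in 9 transcripts and the cargo receptors 6 in 16 (37.5%, beside 5.13% of all transcripts). The cargo receptor calls came from 4 of 7 genes, with 2 calls each from Nbr1 and Sqstm1, and calls on transcripts of the same gene are not separate observations. No test of the difference between roles was made.

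**Figure D2:**
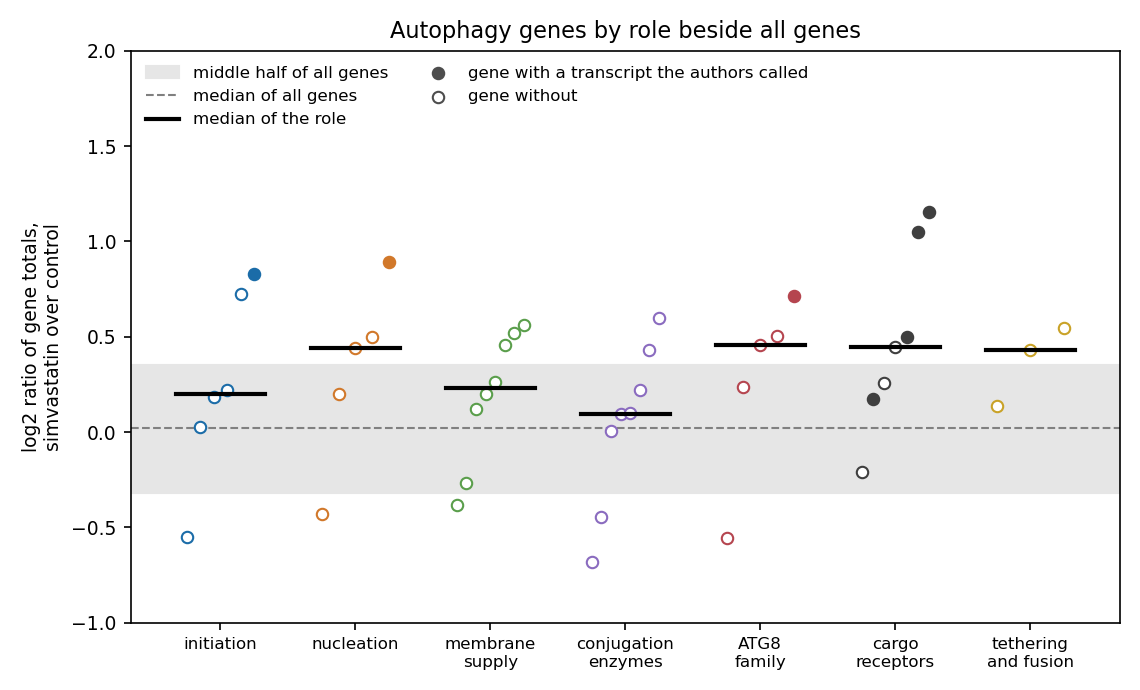
Log2 ratio of gene totals, simvastatin over control, for each autophagy gene by role, 1 point per gene, with the role's median as a bar and filled points for genes with a transcript that the authors called. The shaded band spans the lower to upper quartile of all genes (-0.32 to 0.35) around their median of 0.02, and the medians of nucleation (0.44), ATG8 family (0.46), cargo receptors (0.45) and tethering (0.43) lie above the band. These medians are the totals of Pik3c3, Gabarapl1, Tax1bp1 and Tecpr1. With annotated transcripts only, Gabarapl1 had 0.31 and Tecpr1 0.07, inside the band. The highest Pik3c3 transcript alone had -0.06, and Tax1bp1 has 1 listed transcript.

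Of the 7 cargo receptor genes, 6 totals were higher with simvastatin and 1 lower (median log2 ratio 0.45). Calcoco1, a receptor linked to turnover of the endoplasmic reticulum and Golgi, had the highest ratio of all 42 genes: 15.83 with simvastatin and 7.11 in control, 2.23-fold (p = 0.002, adjusted p = 0.054 in the authors' deposited table). The gene lies at chr15:102706777-102722178 on the minus strand, and its 1 listed transcript is protein-coding. Optn, a receptor for ubiquitinated mitochondria and bacteria, had 18.70 and 9.03, 2.07-fold (p = 0.007, adjusted p = 0.097 in the authors' deposited table), at chr2:5020642-5064051 on the minus strand. Tax1bp1, a receptor for protein aggregates, had 90.05 and 66.06, a ratio of 1.36 under the authors' fold limit (p = 0.012, adjusted p = 0.126 in the authors' deposited table). These 3 receptors thus had 1 coding transcript each, all with the higher value in the treated group.

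The mitophagy receptors of the outer mitochondrial membrane, which are also known as hypoxia targets, had small ratios of opposite direction. Bnip3 had 134.36 with simvastatin and 155.16 in control (log2 -0.21, adjusted p = 0.604 in the authors' deposited table), the one receptor gene with a lower total. Bnip3l had 49.46 and 41.43 (log2 0.26, adjusted p = 0.762 in the authors' deposited table).

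Sqstm1 encodes the receptor that binds ubiquitin chains and LC3 and is itself consumed by autophagy. The gene lies at chr11:50199366-50210827 on the minus strand, with a total of 202.24 with simvastatin and 179.56 in control (log2 0.17). This small difference in the total covered large and opposed differences between its 4 transcripts. The coding Sqstm1-202 had 94.62 and 120.20 (adjusted p = 0.758 in the authors' deposited table). Sqstm1-201, also coding, had 30.51 and 6.07, a 5.03-fold ratio with the authors' call (p = 0.029, adjusted p = 0.193 in the authors' deposited table). An assembled transcript had 74.52 and 43.84, 1.70-fold, with the call as well (p = 0.031, adjusted p = 0.197 in the authors' deposited table), and another had 2.59 and 9.45 without one.

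As shares of the Sqstm1 total, Sqstm1-201 made up 15.1% with simvastatin and 3.38% in control, and Sqstm1-202 made up 46.8% and 66.9%. These are shares of the deposited values. They need not be shares of molecules, because the unit is not named and the transcripts differ in length (2673 and 2037 bases). The 2 coding transcripts together were level, 125.13 and 126.27. The calls on Sqstm1 are therefore calls on 2 of its transcripts, with no deposited test of the gene total. In GENCODE the coding sequence of Sqstm1-202 is 1326 bases long and that of Sqstm1-201 1212, shorter by a stretch of 114 bases, coding bases 1058 to 1171 of Sqstm1-202. The stretch, at chr11:50202399-50202512 on the minus strand, is shown because it is what separates the coding sequences of the transcript with the call and the one without; capitals mark it, with 15 bases of shared exon on each side, and the second line is the same junction without it.
Sqstm1-202: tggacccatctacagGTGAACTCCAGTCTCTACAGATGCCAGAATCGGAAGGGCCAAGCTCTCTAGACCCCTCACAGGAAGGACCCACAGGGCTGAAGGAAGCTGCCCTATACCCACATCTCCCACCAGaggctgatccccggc
Sqstm1-201: tggacccatctacagaggctgatccccggc
The stretch is a multiple of 3 bases long, so the reading frame is kept on either side of it. Of the bases of Sqstm1-201, 70.6% also lie in Sqstm1-202, so the split of reads between them is an estimate that rests on the remaining bases and on this junction. Exons of Mrnip overlap Sqstm1 on the other strand, and whether the counting used strand is not stated in the labels or headers.

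Nbr1, a receptor that works together with Sqstm1, had 7 listed transcripts and a total of 58.26 with simvastatin and 41.22 in control (log2 0.50), at chr11:101552149-101581951 on the plus strand. Its coding transcripts summed to 38.70 and 23.27, 1.66-fold. The coding Nbr1-206 had 20.37 and 9.21, a 2.21-fold ratio with the call (p = 0.031, adjusted p = 0.198 in the authors' deposited table). Nbr1-217 had 4.97 and 3.14, 1.58-fold, also with the call (p = 0.003, adjusted p = 0.063 in the authors' deposited table). Nbr1-203 and Nbr1-204 had ratios of 2.03 and 1.80, and Nbr1-202 had 3.43 and 5.71, all without a call. All bases of Nbr1-206 and Nbr1-217 also lie in other listed Nbr1 transcripts, so the split between them is uncertain. The listed transcripts that share bases with Nbr1-206 include Nbr1-208, annotated as nonsense-mediated decay and not as protein-coding, and the short Nbr1-221. Neither is in the coding sum, so that sum depends on the split as well.

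One Nbr1 entry is of another kind. Nbr1-221, annotated as a miscellaneous RNA, had 17.81 with simvastatin and 16.43 in control (adjusted p = 0.804 in the authors' deposited table) and is only 63 bases long, at chr11:101559519-101559581 on the plus strand. Its span is exactly exon 5 in 5 of the 6 other listed Nbr1 transcripts, so a read from that exon fits the message and the short entry alike. Its sequence is printed in capitals throughout because all of it is shared exon.
Nbr1-221: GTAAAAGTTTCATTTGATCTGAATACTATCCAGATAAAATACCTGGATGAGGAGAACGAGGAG
Without this entry the Nbr1 total was 40.45 and 24.79, a log2 ratio of 0.71 in place of 0.50.

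The tethering and fusion genes were all higher as totals, 3 of 3 with a median log2 ratio of 0.43. A call was on 0 of 7 transcripts, beside 5.13% of all transcripts called higher and 4.37% lower. Tecpr1, which binds the Atg12 and Atg5 conjugate and helps fusion with lysosomes, had a total of 140.20 with simvastatin and 103.88 in control. An assembled Tecpr1 transcript had 72.13 and 38.86, a 1.86-fold ratio just outside the authors' limit on the adjusted p (p = 0.033, adjusted p = 0.206 in the authors' deposited table). The coding Tecpr1-201 had 29.67 and 20.46, and the retained-intron transcripts summed to 38.40 and 44.56. Tecpr2 totalled 5.49 and 3.76, and Epg5, a tether of the autophagosome, had 1.45 and 1.32.

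**Figure D3:**
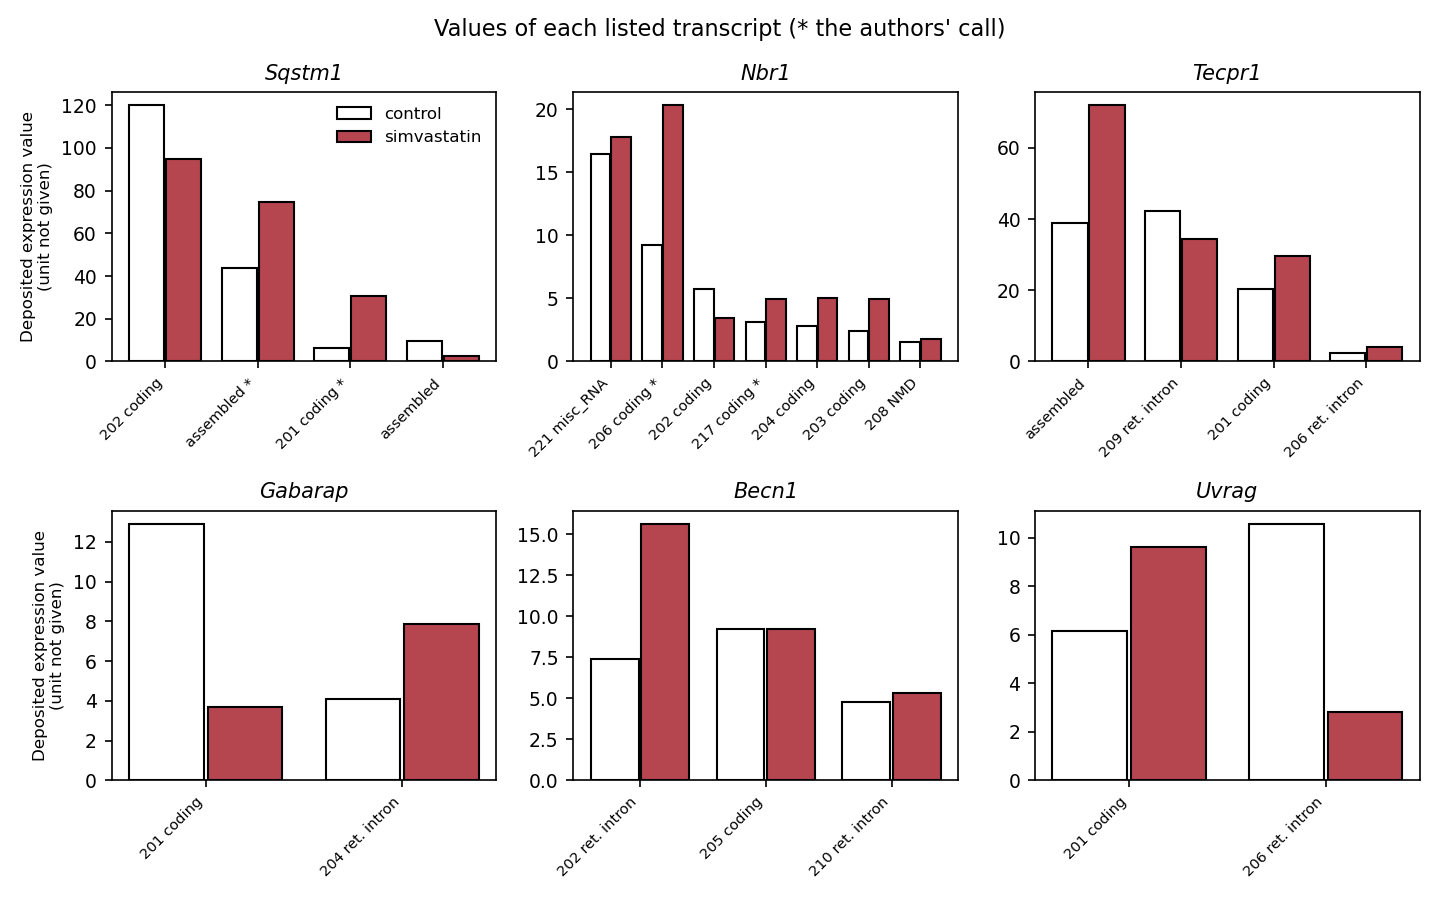
Deposited value of every listed transcript of 6 autophagy genes in control (open bars) and with simvastatin (filled bars), 1 value per group with no error and an axis from 0, with an asterisk for the authors' call. Sqstm1-201 stands at 30.51 against 6.07 while Sqstm1-202 has 94.62 against 120.20, and in Becn1, Gabarap and Uvrag the coding and retained-intron transcripts differ in direction or in size.

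The reading by gene total thus differed from the reading by transcript for many members. Of the 85 transcripts, 60 were higher (70.6%) and 25 lower, beside 51.0% and 48.9% of all transcripts. Annotation as protein-coding covered 52 of the 85, with 10 retained-intron transcripts in 8 genes and 19 models assembled from reads in 11 genes. In 16 of the 22 genes with several transcripts, some were higher and some lower. The 20 genes with 1 listed transcript, for which the split between listed transcripts plays no part, had 17 higher and 3 lower values. Transcripts that are not listed could still matter for them, as for Ulk3, which is listed with a retained-intron form only. A group was listed under 0.1 for 7 transcripts, and no ratio is given for these.

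**Figure D4:**
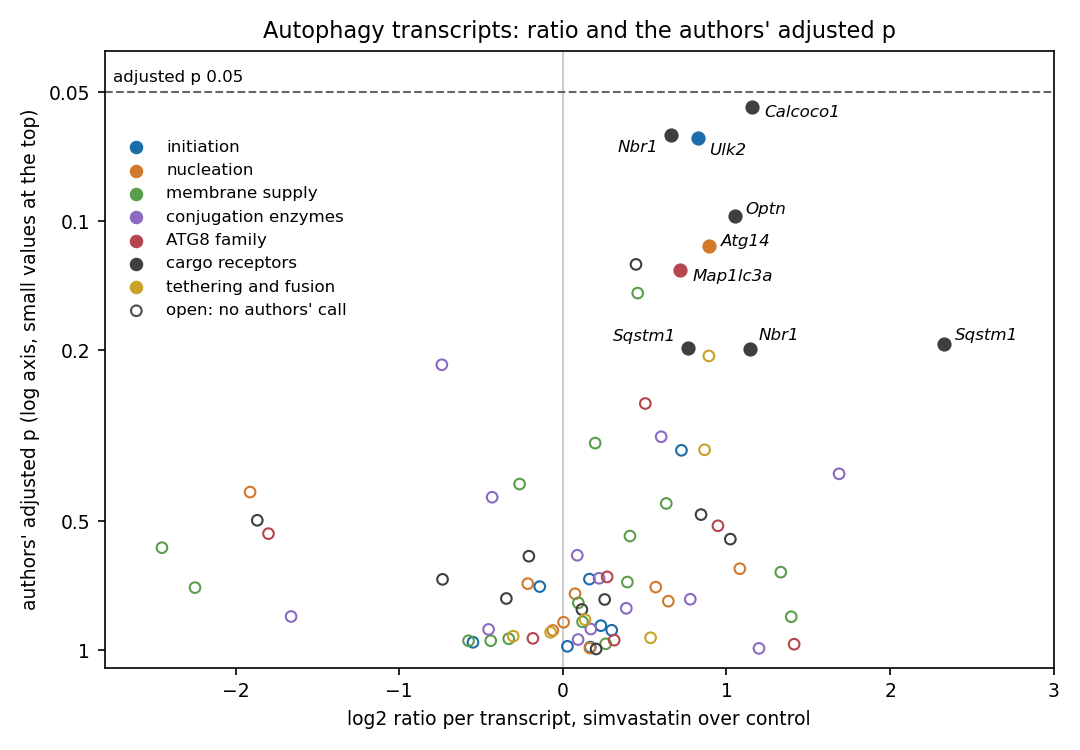
Log2 ratio of each autophagy transcript with both group values at 0.1 or more, against the authors' adjusted p on a log axis with small values at the top, coloured by role, with filled points for the 9 transcripts that the authors called. No point lies above the line at 0.05, Calcoco1 comes nearest at 0.054, and all filled points lie to the right of 0.

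The promoters were searched because CACGTG, the E-box letters, is the core of the site bound by Tfeb, Tfe3 and Mitf, and because most totals had the same direction. RefSeq windows (GRCm38.p6) from 250 bases before to 50 after the start site were matched for 35 of the 42 genes, 41 windows in all, and searched on both strands. CACGTG was present in 5 windows (12.2%), those of Atg14, Atg3, Atg5, Atg7 and Bnip3, beside 7.15% of all 32851 windows. The longer TCACGTG, which contains it, was in 3 windows (7.32%, beside 3.77%), and GTAAACA, the letters bound by FOXO factors, was in 0 (3.65% of all). Of the 7 genes with the authors' call, 6 had a window (Map1lc3a had none matched), and of these 6 only Atg14 had the letters. Of the other genes with the letters, Atg3 and Atg5 had similar values in both groups, Atg7 had a level total from opposed models, and Bnip3 had the lower total with simvastatin. The RefSeq start site used for Atg7 lies 27999 bases inside the GENCODE gene. The windows of Atg14 and Atg3 are printed from 120 bases before to 10 after the start site as the contrast of a gene with the call and one without; capitals mark CACGTG. The printed stretch of Atg14 lies at chr14:47568425-47568554 on the minus strand and that of Atg3 at chr16:45158709-45158838 on the plus strand.
Atg14: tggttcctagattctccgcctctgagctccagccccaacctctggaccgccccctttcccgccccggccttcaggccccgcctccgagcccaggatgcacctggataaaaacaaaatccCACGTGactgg
Atg3: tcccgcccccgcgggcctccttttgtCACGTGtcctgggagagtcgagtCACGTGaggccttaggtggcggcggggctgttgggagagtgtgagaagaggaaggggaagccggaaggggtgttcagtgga
In Atg14 the 1 match begins 1 base before the start site, and in Atg3 the 2 matches begin 94 and 71 bases before it. A match describes letters in a window and is no evidence of binding. Whether the letters go with the direction of a gene was not tested, and 5 windows are too few to show it.

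The authors' enrichment table shows which of these genes stand behind its autophagy terms. The term autophagy held 28 genes at 4.86-fold enrichment with an adjusted p of 2.88e-08 in the authors' deposited table, 6 of them members here: Atg14, Map1lc3a, Optn, Sqstm1, Tecpr1 and Ulk2. Macroautophagy held 8 genes (7.04-fold, adjusted p = 0.00928 in the authors' deposited table), 5 of them members. The KEGG terms Autophagy - animal (20 genes, 2.9-fold, adjusted p = 0.00283) and Mitophagy - animal (12 genes, 2.87-fold, adjusted p = 0.0435) held 6 and 4 members in the authors' deposited table. Map1lc3a and Sqstm1 were in all 4 terms. Calcoco1, with the highest ratio of the 42 genes, was in none of them, and Tecpr1 was in the first 2 although no transcript of it carried the call. The term genes had been chosen on these same samples, so the terms are not independent evidence of a direction.

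Around the core machinery, a list of regulators, adaptors and lysosomal partners held 60 names, of which 52 were listed with 89 transcripts. As totals, 45 were higher with simvastatin and 7 lower, with a median log2 ratio of 0.35, beside 51.8% higher and a median of 0.02 among all genes. The list was chosen with earlier results of these data known. It holds genes that promote autophagy and genes that restrain it, such as Tfeb and Mtor, so a shared direction is no measure of autophagy. At an adjusted p under 0.05, 3 transcripts rose and 0 fell, beside 1.11% and 0.987% of all transcripts. Trp53inp2, an adaptor that binds ATG8 proteins, rose from 20.40 to 64.11, 3.14-fold (adjusted p = 0.038 in the authors' deposited table). Pink1, the kinase that marks damaged mitochondria, rose from 10.00 to 18.77, 1.88-fold (adjusted p = 0.048 in the authors' deposited table). Prkaa1, a catalytic subunit of the energy sensor AMPK, rose from 19.16 to 27.94, 1.46-fold (adjusted p = 0.033 in the authors' deposited table).

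No transcript of the transcription factors Tfeb, Tfe3 and Mitf or of the nutrient kinase Mtor passed the threshold, while Prkaa1 did, as given above. RNA values do not measure the activity of these proteins. Tfeb had 7.73 with simvastatin and 6.04 in control (adjusted p = 0.634 in the authors' deposited table). The main Mitf transcript had 132.60 and 121.94, and the Mitf total was 195.22 and 173.19. Mtor, which holds autophagy down when nutrients are plentiful, had 11.75 and 9.65 (adjusted p = 0.271 in the authors' deposited table). Tfe3 carried the only call as lower in this list, on a transcript at 0.11 and 1.41 (adjusted p = 0.112 in the authors' deposited table), while its total was nearly level at 3.98 and 3.71. That total came from opposed transcripts at low values, the others being listed at 3.56 with simvastatin and 0 in control, and at 0.31 and 2.30. By the authors' call, 10 transcripts of 8 genes in the list were higher (11.2%) and 1 was lower (1.12%), beside 5.13% and 4.37% of all transcripts. The higher genes were Fnip1, Fyco1, Pink1, Rictor, Sesn3, Snap29, Trp53inp1 and Trp53inp2.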

How the data were processed

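RNA sequencing had been done on 6 samples, 3 control and 3 simvastatin, grouped by their titles, from stranded total RNA libraries per the labels' protocols. The submitters' processing notes name HISAT2 2.0.5, StringTie and the build GRCm38, with no role or order. The deposited table holds, per the file headers, 1 expression signal per group and transcript, a signed fold, a p-value with 3 decimals, the p-value after adjustment and the authors' call. Its enrichment terms are from DAVID, per the file headers. Neither the authors' test nor the unit of the signal is named there. No column of per-sample values was left unused (0). The p-values measure the spread between the 3 cultures of a group only as far as the series' description of them as biological replicates holds.

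Gene totals were sums of the transcript values, and log2 ratios were computed from the totals without a pseudocount (Python 3.11.15, pandas 2.3.3, numpy 2.4.6), for genes with a mean total of at least 1. Ratios computed here lay within 1.2% of the authors' deposited folds. The adjusted p-value of the authors, over the whole table, was the test, with a threshold of 0.05. It exists per transcript only. The code for the Benjamini-Hochberg adjustment was checked on simulated p-values, and that for ratios of totals on control values multiplied by known factors. These are checks of the code only, and the counts of transcripts were not checked in this way. Transcript kinds, exons and coordinates came from GENCODE mouse release 21 (GRCm38), in which all 42 genes were found, and promoters from RefSeq. Exons of another gene overlap Map1lc3b, Bnip3, Optn, Sqstm1, Tax1bp1, Atg14, Becn1, Uvrag, Atg4d and Gabarapl1 on the other strand, and Vmp1, Atg9a and Wdr45 on the same strand.

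The members, lists and roles were chosen with earlier results of these data known. Every member is named. Full values were given for those with the authors' call or an adjusted p under 0.05, the highest level and the largest ratios of each role, and a fixed list of central genes. Other thresholds, scalings, pseudocounts and choices of transcripts were tried.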

Additional observations from a re-analysis of the deposited data

How the results depend on the processing

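The count of autophagy transcripts past the threshold was 0 at an adjusted p under 0.05 in the authors' deposited table, 4 at an adjusted p under 0.1, 9 by the authors' call and 13 (12 higher, 1 lower) at an unadjusted p under 0.05. It was 1, Calcoco1, when the Benjamini-Hochberg adjustment was recomputed from the printed p-values, which differed from the printed adjusted values by up to 0.0172 where p was over 0.001. With annotated transcripts only, with the highest transcript of each gene, or with protein-coding and assembled transcripts only (chosen after seeing the data) it was 0. The median log2 ratio of 0.25 stayed between 0.23 and 0.44 over 9 other settings. Dividing by the group totals added 0.20 to every log2 ratio, those of all genes included, and changed no sign among the 42. Choosing transcripts mattered for single genes. With the highest transcript of each gene, 6 of 42 ratios changed sign (Atg10, Pik3c3, Sqstm1, Tecpr2, Uvrag and Vmp1), with annotated transcripts only 2 of 39 (Atg10 and Sqstm1), and with protein-coding and assembled transcripts 1 of 41 (Uvrag). Sqstm1 had a log2 ratio of -0.35 from its highest transcript and -0.013 from annotated transcripts only, in place of 0.17. No paired analysis was possible because the columns used give 1 value per group and carry no replicate number. Leaving out single replicates was not run for the same reason. Depth is unknown, so it was not known which low values, such as those of Atg14, Atg10 and Epg5, are limited by it.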
